A study of Mus musculus with 2 samples.

Results

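COPII and COPI vesicle traffic carries secretory proteins from the endoplasmic reticulum (ER) to the Golgi and returns escaped proteins and membrane to the ER. It was read here as 38 genes named by gene symbol, out of 18193 genes represented on the array: 12 genes of the COPII coat and its assembly, 7 cargo receptors, 7 p24 proteins, 7 subunits of the COPI coat, 3 KDEL receptors and 2 Arf GTPases. The genes were listed by function, with earlier results of these data known, and no measured value was used to list them. Each was represented by its brightest probe set, a group of probes against 1 transcript, among those annotated with a single gene symbol. Of the 38 genes, 37 had signals above a floor of 264.9 on both arrays. The exception was Tmed2, whose only such probe set read 103 and 166, and its 6 other probe sets carried a second gene symbol and were not used to name it.

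The samples were whole pancreas of male offspring of C57BL/6J dams, taken at 10 weeks of age. The groups differed in what the dams ate between embryonic days 12.5 and 14.5, which was control diet or, in the group called TD as in the labels, a diet deficient in the essential amino acid threonine, so that the offspring were exposed before birth only. Offspring of both groups were weaned at 3 weeks onto control diet, and neither group was treated itself. RNA was pooled within each group and hybridised once, so there was 1 pool and 1 array per group, with no replicate and no test of any difference below. Numbers of animals and litters behind each pool are not given in the sources used here.

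Values are MAS5 signals in arbitrary units, and each log2 ratio is TD over control. In place of a replicate error, a local spread is given for each gene. It is the median absolute deviation, scaled to a standard deviation, among the 200 genes nearest in signal, and describes how far genes of like brightness lay apart on these arrays. Both arrays had a trimmed mean signal of 500.0, so every ratio is relative to the array as a whole. The acinar markers Cpa1, Cela1, Cela2a, Ctrb1 and Cel had signals from 145070 to 262788 on both arrays, so the labelled tissue showed its defining transcripts. In RNA from a whole organ, fewer cells of a type and less RNA per cell cannot be told apart.

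As background, COPII vesicles bud from ER exit sites. Preb, the mammalian Sec12, loads the GTPase Sar1 with GTP, Sar1 recruits the Sec23 and Sec24 pair that selects cargo, and Sec13 and Sec31 polymerise around it as an outer cage. COPI vesicles form when Arf GTPases recruit a preassembled coat of several subunits, and they bring back membrane proteins and, through KDEL receptors, soluble ER chaperones. The p24 proteins ride in both kinds of vesicle. Acinar cells of the pancreas make more secreted protein than most cells and depend heavily on this route.

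A subset of these genes carries, near the transcription start, the core of an unfolded protein response element. This sequence is known to be read by the transcription factors XBP1 and ATF6. RefSeq promoter windows (assembly GRCm38.p6, 250 bases before to 50 after the start) were at hand for 33 of the 38 genes. The core TGACGTGG, searched on both strands, lay in the windows of 6 of these 33 genes (18.2%): Arf1, Copb1, Copb2, Kdelr3, Sec23a and Sec24d. It was found in 193 of all 27025 genes with a window (0.714%) and in 101 of 8720 genes above the floor (1.16%). Median G+C content of the windows was 59.0% for the 33 genes and 60.7% for the 8720. The 3 sequences below are from the genes of a cargo selector, a coat subunit and a KDEL receptor, and their match lay wholly before the start. Arf1 also had such a match, beginning 84 bases before the start, and another after the start, and is not shown. In Sec23a the only match lay after the start, at bases 7 to 14, and in Copb2 it spanned the start. The start is that of the RefSeq window, and the annotated Sec24d gene reaches further upstream. Each is the 60 bases that end at the base before the start, with the matched core or its reverse complement in capitals.
Sec24d (chr3:123267436-123267495, plus strand): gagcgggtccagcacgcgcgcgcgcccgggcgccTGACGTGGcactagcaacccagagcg
Copb1 (chr7:114254681-114254740, minus strand): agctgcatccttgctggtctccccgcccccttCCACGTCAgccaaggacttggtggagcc
Kdelr3 (chr15:79516348-79516407, plus strand): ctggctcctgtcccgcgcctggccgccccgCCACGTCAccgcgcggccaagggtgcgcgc
In these windows the core began 26, 28 and 30 bases before the start, on the gene's own strand in Sec24d and on the opposite strand in Copb1 and Kdelr3. The longer ER stress elements ERSE (CCAAT, then CCACG after 9 bases) and ERSE-II (ATTGG, then CCACG after 1 base), also searched on both strands, matched none of the 33 genes and 0.137% and 0.0444% of all genes. Both hold the letters CCACG, which overlap the reverse complement of the core. A match describes letters and not a site in use.

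Transcripts of the vesicle machinery were close to equal in the pools when read by the brightest probe set of each gene. None of the 37 genes differed 1.5-fold or more by that reading. Of all 10758 genes above the floor 12.6% did so, and 5.81% of the 5246 genes in the same range of signal. Surf4, Ergic3, Copz1 and Tmed5 each had another probe set at least 1.5-fold lower. Signals were at least 20% lower in the TD pool in 3 genes, namely Sec24d, Sec13 and Kdelr2, against 16.6% of all genes and 14% in the same range. No gene was at least 25% higher, the same ratio in the other direction, against 18.7% and 10.8%. Once a loess trend of ratio on signal was removed, Sec24d (−0.35) was past these limits on the lower side and Ergic2 (0.37) and Sec31a (0.33) on the higher side, while Sec13 (−0.29) and Kdelr2 (−0.26) were inside them. Log2 ratios ran from −0.41 for Sec24d to 0.32 for Ergic2, with a median of −0.04 that turned to 0.02 after the loess step, and the median over all genes above the floor was 0.00. Of the 37 ratios, 26 were below 0, or 70.3% against 49.9% of all genes and 56.3% in the same range. After the loess step, however, 14 of 37 were below 0, beside 5290 of all 10758 genes above the floor. In all, 12 of the 37 genes lay beyond 1 local spread and 2 beyond 2 local spreads. Over all genes above the floor these shares were 32.9% and 6.67%. In the same range of signal 1804 and 390 of 5246 genes lay beyond 1 and 2 local spreads. The counts by local spread were made before the loess step.

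**Figure D1:**
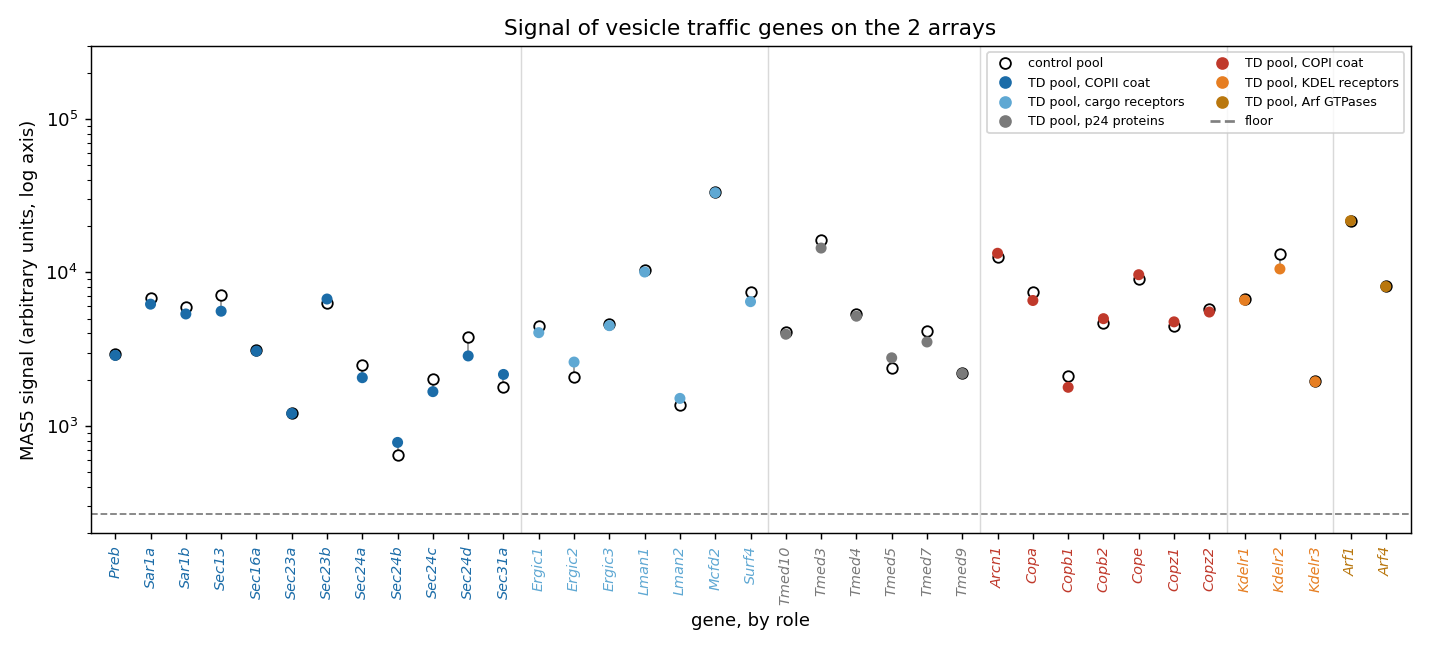
MAS5 signal (log axis, arbitrary units) of 37 vesicle traffic genes, ordered by role, in the control pool (open circles) and the TD pool (filled circles), 1 array each, with the floor of 264.9 as a dashed line. The circles of most genes overlap, and the widest gap is at Sec24d, 3786 against 2854.

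Among the genes of COPII coat assembly, 9 of 12 had lower and 3 had higher signals in the TD pool, and the median log2 ratio was −0.08 (−0.03, with 6 of 12 lower, after the loess step). The Sec24 proteins, which hold cargo in the coat, went both ways. Sec24d read 3786 in the control and 2854 in the TD pool, 1.33-fold lower, with a log2 ratio of −0.41 and a local spread of 0.20. Sec24a read 2475 and 2059, a log2 ratio of −0.27 with a local spread of 0.23. Sec24c had the same ratio, −0.27, from 2012 to 1670, with a local spread of 0.27. These 3 paralogs were each lower by 1 to about 2 local spreads before the loess step. After it Sec24d was at −0.35, and Sec24a (−0.21) and Sec24c (−0.23) lay inside their local spreads. Sec24b read 646 and 779 and had a log2 ratio of 0.27, inside its local spread of 0.41.

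The outer cage also split. Sec13, which serves in nuclear pores as well, read 7165 in the control and 5586 in the TD pool, 1.28-fold lower, a log2 ratio of −0.36 beside a local spread of 0.16. Its cage partner Sec31a read 1782 and 2162, a log2 ratio of 0.28 with a local spread of 0.25. Before the loess step Sec13 and Sec24d were the only members beyond 2 local spreads, and after it neither was (−0.29 and −0.35). Each was read by 1 probe set above the floor. Of the inner coat pair, Sec23a stood at 1216 and 1204 (−0.01) and Sec23b at 6329 and 6709 (0.08), both within their local spreads. The GTPase genes Sar1a (6794 and 6210) and Sar1b (5913 and 5361) had log2 ratios of −0.13 and −0.14, also within theirs. Preb, the exchange factor for Sar1, had −0.04, and Sec16a, the scaffold of exit sites, had −0.02. Both were nearly level in their brightest probe sets.

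Of the 7 cargo receptors, 5 had lower and 2 higher signals, with a median log2 ratio of −0.04 that became 0.02 after the loess step. Mcfd2, the soluble partner of the lectin Lman1 in carrying clotting factors, read 33684 and 33119, a log2 ratio of −0.02 with a local spread of 0.10. Lman1 itself read 10436 and 10065 (−0.05). This receptor pair was level within its spread. Surf4, a receptor for many soluble secreted proteins, read 7457 in the control and 6449 in the TD pool, a log2 ratio of −0.21 beside a local spread of 0.16. Its 5 probe sets ranged from −0.72 to 0.15, and 4 of them were lower.

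Ergic2, which cycles between the ER and the intermediate compartment, was the highest of the whole set. It read 2092 and 2603, 1.24-fold higher, a log2 ratio of 0.32 with a local spread of 0.20. All 3 of its probe sets were higher, from 0.25 to 0.32. Its partner genes did not follow it: Ergic1 had −0.13 from 4444 to 4049, with all 5 probe sets lower, and Ergic3 had −0.04 from 4637 to 4498. The lectin gene Lman2 read 1371 and 1509, a log2 ratio of 0.14 within a local spread of 0.30, and its other probe set gave 0.19.

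The p24 proteins, which link cargo such as lipid-anchored proteins to the coats, had a median log2 ratio of −0.05 over the 6 genes above the floor, 5 of them lower (0.01, with 2 of 6 lower, after the loess step). Tmed3 read 16279 in the control and 14421 in the TD pool, a log2 ratio of −0.17 beside a local spread of 0.15. Tmed7 had −0.23 from 4136 to 3520, with a local spread of 0.22. Tmed5 went the other way, 0.23 from 2372 to 2774, with a local spread of 0.20. The sign of Tmed5 depended on the probe set, since its other probe sets above the floor gave −0.60 and −0.35. Tmed4 (5396 and 5183), Tmed9 (2206 and 2194) and Tmed10 (4087 and 3954) had log2 ratios of −0.06, −0.01 and −0.05. For Tmed10, 4 further probe sets carried a second symbol and were not used.

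Of the COPI coat, 7 subunit genes were in the set. The gamma subunits Copg1 (−0.08) and Copg2 (−0.32) were not, and both were lower in their brightest probe sets. Of the 7, 4 had higher and 3 had lower signals in the TD pool, with a median log2 ratio of 0.08. That sign was not held by the choice of probe set: with each gene read as the median of its probe sets it was −0.08, without probe sets of a sharing suffix −0.13, and with the next brightest probe set −0.25 over 3 genes. Copa, the largest subunit, read 7446 and 6562, a log2 ratio of −0.18 beside a local spread of 0.16. It was the only COPI subunit beyond 1 local spread, and at −0.11 after the loess step it lay inside. Copb1, 1 of the genes with the promoter core shown above, read 2103 and 1782, a log2 ratio of −0.24 with a local spread of 0.25. Copb2 had 0.09 from 4681 to 4996, and Arcn1, the delta subunit, had 0.08 from 12611 to 13336. Cope read 9090 and 9665 (0.09). The zeta subunits Copz1 (4472 and 4761) and Copz2 (5792 and 5518) had 0.09 and −0.07. All 5 of these lay within their local spreads of 0.15 to 0.17.

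The KDEL receptors capture escaped ER chaperones in the Golgi. Kdelr2 read 13200 in the control and 10540 in the TD pool, a log2 ratio of −0.32 beside a local spread of 0.16. Its other probe set was also lower, at −0.18 from 4290 to 3774. Kdelr1 (6691 and 6595) and Kdelr3 (1956 and 1937) were level, with log2 ratios of −0.02 and −0.01 that became 0.05 and 0.03 after the loess step. Kdelr2 was thus the lowest of the 3 receptor genes in this pair of arrays, also after that step (−0.26). The Arf GTPases were level as well. Arf1, which recruits the COPI coat, read 21533 and 21722 (0.01, local spread 0.12), and Arf4, which acts beside it, read 8100 and 8089 (0.00, local spread 0.17).

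**Figure D2:**
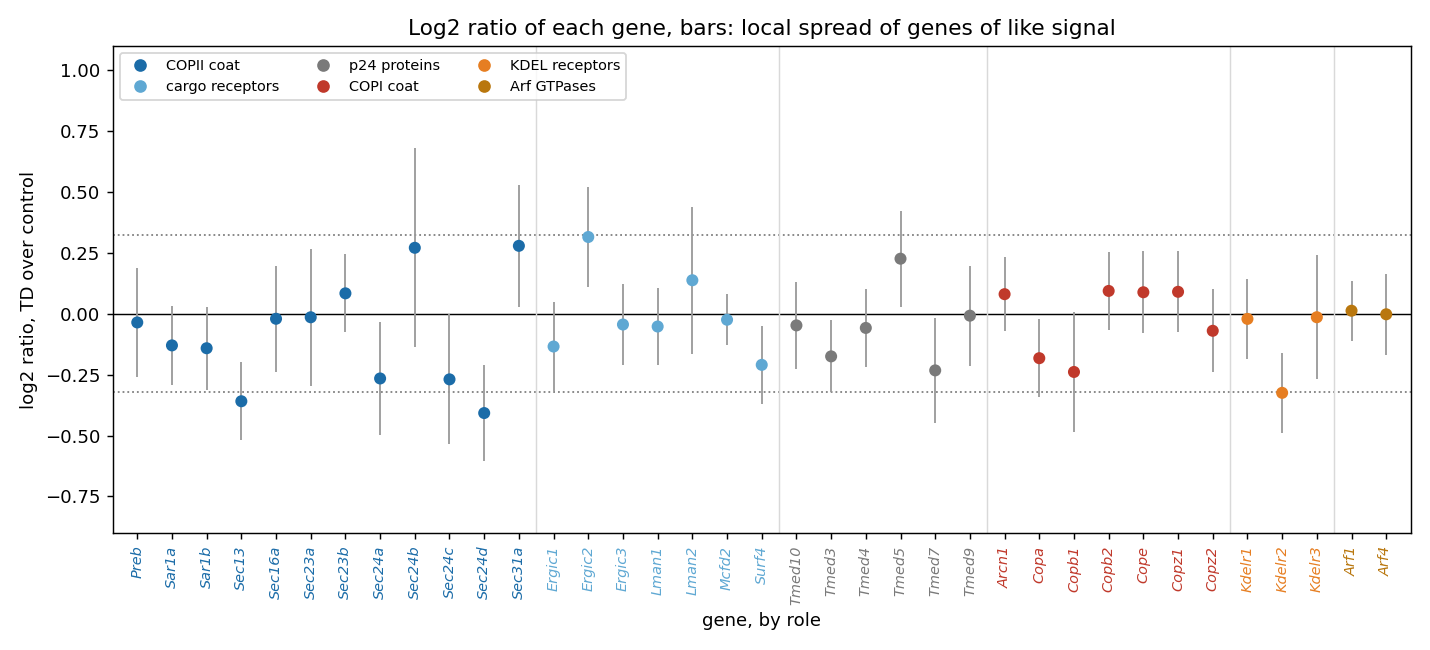
Log2 ratio (TD over control) of each of 37 genes by role, 1 array per pool; bars are the local spread of the 200 genes nearest in signal, not a replicate error, and dotted lines mark 25% higher and 20% lower. Only Sec13, Sec24d and Kdelr2 reach a dotted line, all on the lower side (after the loess step, Sec24d on the lower and Ergic2 and Sec31a on the higher side), while Ergic2 is the highest at 0.32.

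Forward and return traffic were compared by setting the COPII coat with the cargo receptors (19 genes) against the COPI coat with the KDEL receptors and Arf GTPases (12 genes). The forward genes had a median log2 ratio of −0.04, with 14 of 19 lower, and ranged from −0.41 to 0.32. The return genes had a median of −0.01, with 7 of 12 lower, and ranged from −0.32 to 0.09. The difference of the medians, forward minus return, was −0.04, and the range of the return genes lay inside that of the forward genes. Counting the p24 proteins with either group left the difference at −0.04 and −0.03, and without Arf1 and Arf4 it was −0.03. The 12 genes of COPII coat assembly, Preb and Sec16a included, against the 7 listed COPI subunits gave −0.16, from medians of −0.08 and 0.08. The gamma subunits Copg1 (−0.08) and Copg2 (−0.32), not members of the set, were left out of that comparison. The difference changed sign with the probe set: it was 0.05 without probe sets of a sharing suffix and 0.14 with the next brightest probe set. After the loess step it was −0.04, from medians of 0.01 and 0.06.

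**Figure D3:**
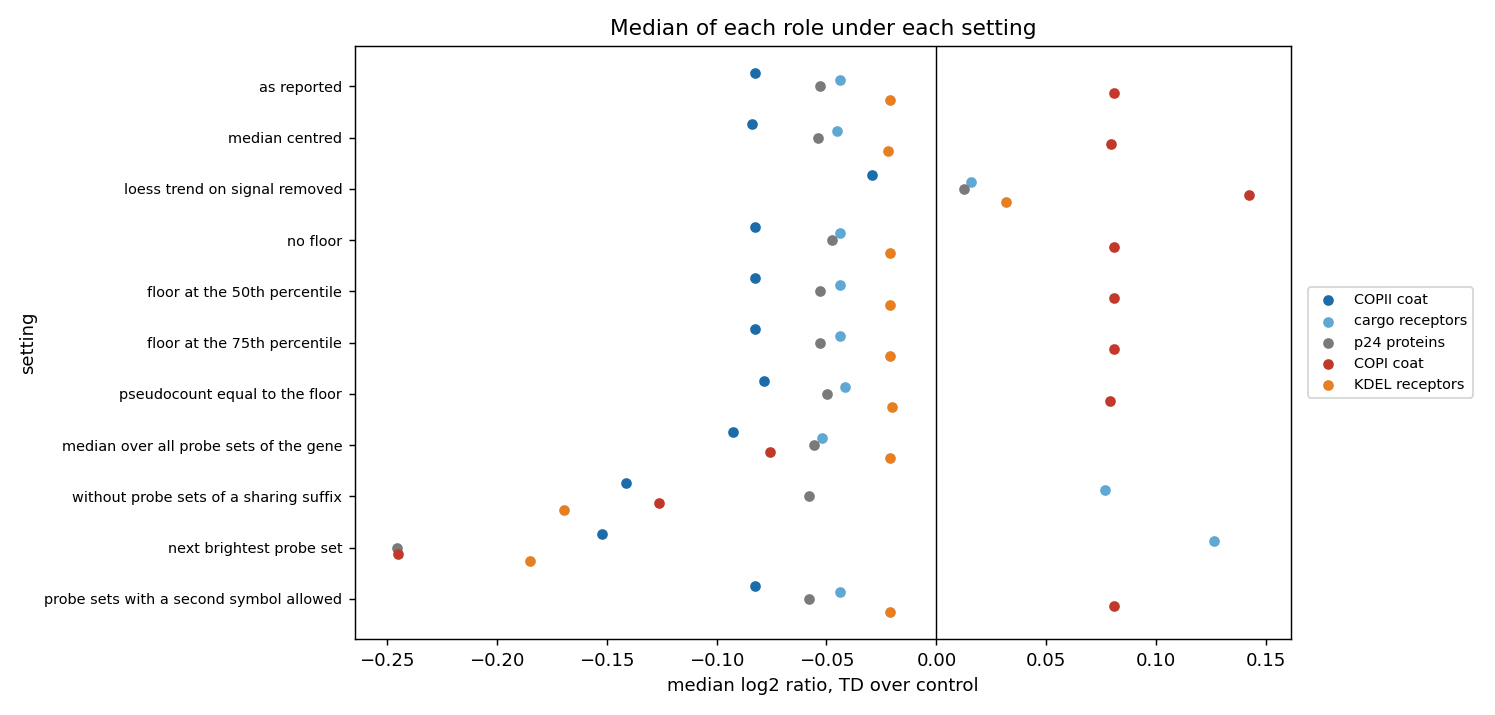
Median log2 ratio of 5 roles (colours) as reported and under each other setting (rows); with the next brightest probe set the KDEL receptor point is a single gene. COPI lies at 0.08 as reported and at −0.25 with the next brightest probe set, whereas COPII stays below 0 in every row.

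Since ratios scatter more at low signal, genes of like signal were set beside the 37. The geometric mean of both signals ran from 709 to 33401 over the 37, a range that held 5246 genes with a median log2 ratio of −0.04. That value is the same as the median of the 37 genes. This range served only as a rough match for noise, since probe sets differ in affinity and their signals give no order of transcript levels. Within it local spreads of the 37 genes still ran from 0.10 (Mcfd2) to 0.41 (Sec24b).

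**Figure D4:**
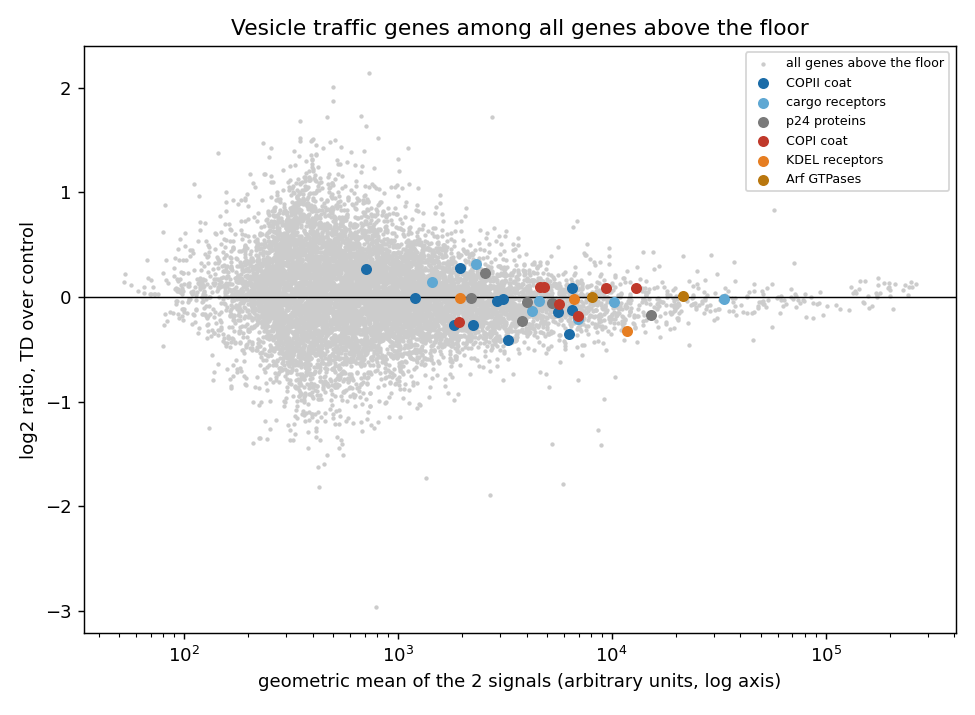
Log2 ratio against the geometric mean of both signals (log axis) for 10758 genes above the floor (grey) and 37 vesicle traffic genes by role (colours). The coloured points lie between −0.41 and 0.32 while the grey cloud reaches from −2.96 to 2.14, and its spread narrows as signal grows.

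Repeat probe sets show how firmly single genes can be read. The set had 85 probe sets with a single symbol, of which 73 were above the floor on at least 1 array. Of these, 52 were lower and 21 higher in the TD pool, or 71.2% lower against 49.4% of 17531 such probe sets of all genes. These signs were read before the loess step. After it 14 of 37 genes were lower in their brightest probe sets, beside 5290 of all 10758 genes above the floor. In 19 genes 2 or more probe sets were above the floor. They had 1 sign in 10 of these genes, 7 lower and 3 higher, and both signs in 9. The standard deviation between probe sets of 1 gene was 0.25 over 55 probe sets of these 19 genes, and 0.38 over 10941 probe sets of 4251 genes in all. Both values exceed most of the ratios given above.

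The genes that were lower in every probe set above the floor were Sar1a, Sec16a, Ergic1, Tmed3, Tmed9, Kdelr2 and Arf4. Those higher in every one were Lman2, Ergic2 and Arf1. In their brightest probe sets Tmed9 (−0.01), Arf4 (0.00) and Arf1 (0.01) were level. Probe sets were furthest apart in Surf4, with 0.87 between the highest and lowest log2 ratio. Ergic3 had −0.72 in a probe set reading 5454 and 3314, against −0.04 in its brightest. Arcn1 had 0.36 and −0.34 in its others, and Preb had −0.25 and 0.50. Copz1 had −0.66, a bound, in a probe set at the floor in the TD pool.

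**Figure D5:**
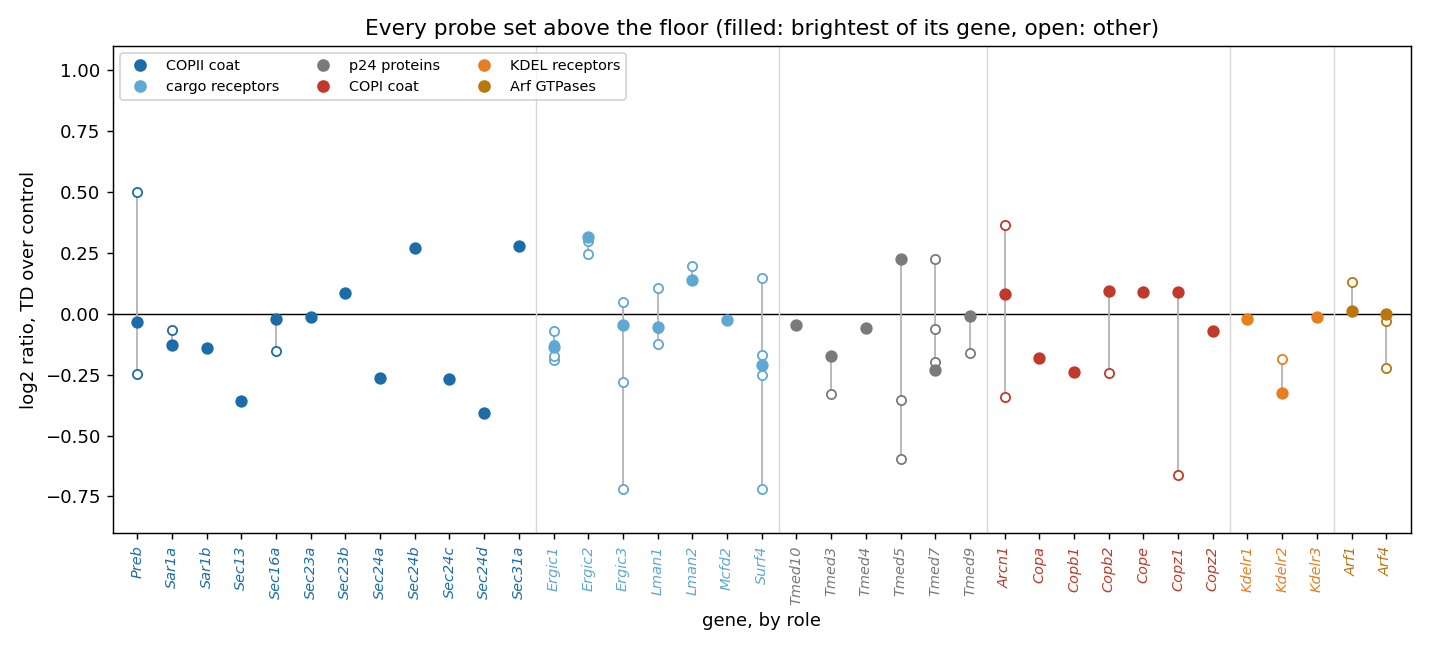
Log2 ratio (TD over control) of all 73 probe sets above the floor for 37 genes by role; filled circles are the brightest probe set of each gene and open circles the others, joined by a line. Ergic2 has 3 probe sets together above 0, whereas those of Surf4 and Tmed5 reach from above 0 to −0.72 and −0.60.

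Further genes of the route between ER and Golgi went both ways. Leaving aside transcription factors and soluble ER proteins, 73 of 75 such genes were above the floor, 36 lower and 37 higher, with a median log2 ratio of 0.00. Of these, 10 were at least 20% lower and 7 at least 25% higher, beside 16.6% and 18.7% of all genes above the floor. Among 16 exit site organisers and COPII regulators 1 was lower and 2 higher by these measures. The sorting receptor Bcap29 was at 0.49 (local spread 0.56), Cnih4 at −0.26, Pef1 at −0.20 and Mia3, the exit site protein that loads collagen, at −0.18. Other probe sets of Mia3 ran from −0.39 to 0.38. The lower gene was Sec16b, a paralog of Sec16a, at least 1.86-fold lower from 492 to the floor. The other higher gene was Mia2, at least 1.47-fold higher from the floor. Sec16b and Mia2 were picked out after their values were seen.

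Regulators of COPI moved in both directions. Gbf1, which activates Arf1, read 1277 and 1820, a log2 ratio of 0.51 with a local spread of 0.28, and its other probe sets gave 0.23 and 0.30. Arfgap1, which switches Arf1 off, read 1741 and 1173, a log2 ratio of −0.57 with a local spread of 0.32. Arfgap2 had −0.35, but its other probe sets ran from −0.51 to 1.87, and the coat subunit Copg2 had −0.32. Over the 9 genes of this group above the floor the median was −0.08, or −0.02 after the loess step. Of the 9, 2 were at least 20% lower and 1 at least 25% higher, beside 16.6% and 18.7% of all genes above the floor. Copg1, the other gamma subunit, shown for comparison with Copg2, had −0.08 from 2763 to 2621 but 0.73 in its other probe set.

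Of 14 SNARE genes and partners, which fuse the vesicles, none was 20% lower and 2 were 25% higher, beside 16.6% and 18.7% of all genes. The ATPase gene Nsf was at 0.54 but at −1.04 in its other probe set, and Bet1l was at 0.40 with others from −0.08 to 1.03. Gosr2 was at −0.25 but at 0.35 in its other probe set, and Scfd1, read by 1 probe set above the floor, was at −0.25. Tethers and Rab GTPases had 7 of 34 genes at least 20% lower and 2 at least 25% higher, with a median of −0.02 (0.03 after the loess step). Both counts stand beside 16.6% and 18.7% of all genes. Of the TRAPP tethering complex, Trappc1 was at −0.62 (local spread 0.23) and Trappc2 at −0.58 (local spread 0.32). Its other subunits went both ways, from −0.51 for Trappc6b, whose other probe set gave 0.23, to 0.27 for Trappc3, both picked out after their values were seen. Nbas, part of a tether for COPI vesicles at the ER, read 2889 and 1899, a log2 ratio of −0.61 beside a local spread of 0.20. Cog8 was at −0.52, while its other probe sets gave 0.54 and 1.68.

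Soluble ER proteins listed here as returned by KDEL receptors had lower signals in their brightest probe sets. Whether each of them, Dnajb11 among them, carries a signal for that return was not checked. All 12 listed genes read lower in the TD pool, with a median log2 ratio of −0.29 (−0.22 after the loess step, again 12 of 12 lower). Of all genes above the floor 49.9% were below 0 (5290 of 10758 after the loess step), and 56.3% in the signal range of the vesicle genes. At least 20% lower were 4 of the 12, against 16.6% and 14%: Creld2 (−0.50), Hsp90b1 (−0.46), Calr (−0.41) and Hyou1 (−0.35). With the next brightest probe set 3 of 5 listed genes were lower. Other probe sets gave 0.07 for Hsp90b1, −0.52 to 0.15 for Calr and −0.29 to −0.23 for Hyou1. Beside the soluble ER proteins, Kdelr2 had −0.32 and the other KDEL receptors −0.02 and −0.01. Of the factors known to switch on genes of this route, Xbp1 had −0.03 from 64593 to 63333, Atf6 0.36 from 2735 to 3515, Creb3l2 0.10 and Bhlha15, which drives the secretory programme of acinar cells, 0.29. Creb3l1, named after its value was seen, had −0.56 as a bound from the floor. The 6 genes with the core in the promoter window had log2 ratios from −0.41 to 0.09 with a median of −0.01 and 4 lower. The 27 with a window but no core had a median of −0.04 and 19 lower.

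Median log2 ratios of several lists of cell type markers lay further from 0 than that of the vesicle genes, though each list held few genes. Acinar markers had 6 of 7 genes higher, with a median log2 ratio of 0.14. Plasma and B cell markers, from cells that also secrete heavily, had 3 of 4 genes lower (2 of 4 with each gene read as the median of its probe sets), and their summed signal was 10189 in the control and 4333 in the TD pool. Cd79a was below the floor on both arrays. Islet markers had 6 of 6 genes lower with a median of −0.35, and their summed signals were 173905 and 142917. Adipocyte markers had 5 of 5 lower with summed signals of 31074 and 13796. Macrophage markers had 3 of 3 and endothelial markers 4 of 4 genes above the floor higher, with medians of 0.51 and 0.39. In each of these lists 2 genes lay beyond 1 local spread. Cd68, Cdh5 and Tek lay within theirs, and Kdr was a bound from the floor. Cd14, the other macrophage marker, was below the floor on both arrays and read lower in the TD pool (161 and 73). Fibroblast markers had 2 of 4 lower, with a median of −0.02, and 2 of 2 duct markers above the floor were higher. The part of these cell types in the ratios of the vesicle genes was not tested.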

How the data were processed

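The deposited table held 45101 probe sets with a linear signal intensity on 1 array per group, which the authors computed with MAS5, as the submitters' processing notes state. Its version and a genome build are not given in the sources used here. That method scales each array as a whole, so a difference in total mRNA cannot be seen. Of the probe sets, 34945 carried 1 gene symbol in the platform annotation, 932 several, 9160 none, and 64 were controls. Symbols were updated by gene identifier through RefSeq (34741 matched). Signals under the higher of the arrays' 60th percentiles were raised to that floor before log2. Ratios were computed in Python 3.11.15 with numpy 2.4.6, pandas 2.3.3 and, for loess, statsmodels 0.14.6. The procedure was tested on simulated data. Every member is named, and from other traffic lists up to 4 genes per group with the largest absolute ratio above the floor on both arrays; Copg1, Creb3l1, Mia2, Sec16b, Trappc3 and Trappc6b are named outside this rule. Members and lists were chosen with earlier results of these data known, and the promoter motifs after the members' ratios had been seen. Alternatives covered scaling, floor, probe set and grouping. A sharing suffix (_s_at, _x_at or _a_at) marks a probe set that may read several transcripts. Without replicates no test was run, and the number of arrays limits precision.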

Additional observations from a re-analysis of the deposited data

How the results depend on the processing

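Scaling by the median, other floors or none, and a pseudocount left each of the 8 summary values within 0.1 log2 units or 1.5 times its count. With the loess trend removed, 14 of 37 members were lower in place of 26, beside 5290 of all 10758 genes above the floor. The 3 then past the limits of 20% lower or 25% higher included 1 of the original 3, Sec24d. Without probe sets of a sharing suffix, 6 of 31 members were at least 20% lower or 25% higher in place of 3 of 37. With the next brightest probe set, which left 19 genes, the medians were −0.15 for all members, −0.20 for the return group and −0.25 for p24 proteins, forward minus return was 0.14, 13 genes were lower and 5 were past those limits. Here the gene set itself was smaller. The 12 genes of COPII coat assembly against the 7 listed COPI subunits gave a forward minus return difference of −0.16. Single members shifted beyond their local spread in 9 of 19 genes with the next brightest probe set, 4 of 31 without sharing suffixes and 3 of 37 with the median over probe sets. Sec13, Sec24d and Kdelr2 stayed below 0 under every alternative that gave them a value. Sec13 and Sec24d had 1 probe set each, without a sharing suffix and far above the floor. The floor and probe set alternatives therefore could not change their values. Allowing probe sets with a second symbol, an alternative chosen after seeing the data, moved no summary value past these limits. No paired analysis was possible because each group had 1 sample.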
